A study of Mus musculus with 3 samples.

Results

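The genes described here encode inhibitors of MAP kinase signalling: the dual-specificity phosphatase genes Dusp1, Dusp2, Dusp4, Dusp5, Dusp6 and Dusp10, the Sprouty genes Spry1 and Spry2, and the Spred genes Spred1 and Spred2. These 10 genes were chosen by name and read from the probe sets annotated with exactly that 1 gene symbol, taking the brightest probe set of a gene. All 10 of the 19935 genes with such a probe set were found, and 9 were bright enough to be compared. The RNA came from naive CD4+ T cells of wild-type C57BL/6 mice 8 weeks old, cultured with IL-21, with IL-6 + TGFb1, or with medium and vehicle, and each culture was measured on 1 array. IL-21 is a cytokine made by helper T cells, and IL-6 together with TGFb1 is the standard recipe for Th17 differentiation. Culture time, cytokine doses, any stimulus of the T cell receptor and any pooling of animals are not stated in the labels.

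MAP kinases (ERK, JNK and p38) are switched on by phosphorylation of a threonine and a tyrosine in their activation loop, and the Dusp enzymes remove both phosphates. The Dusp genes are themselves commonly induced when the cascade is active, so they close a negative feedback loop. Sprouty and Spred proteins act further upstream, where they restrain the activation of Ras and Raf below receptors. In T cells, ERK is activated mainly by the antigen receptor through Ras, and JNK and p38 respond to costimulation, cytokines and stress.

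None of the 9 compared members was 2-fold higher or lower in any of the 3 comparisons. Of all compared genes, 0.591% were for IL-21 against medium, 1.04% for IL-6 + TGFb1 against medium and 0.464% between the cytokine cultures. The member with the widest range over the arrays was Spry1, which was lower with IL-6 + TGFb1 than in either of the other cultures, and Dusp6 had the same order of arrays. Dusp10 was higher in both cytokine cultures than in medium, most with IL-21. Dusp4 was lower with IL-21 alone, and Dusp1, Spred1 and the brightest Spred2 probe set were nearly level. With 1 array a culture there is no replicate error and no p-value, and each difference below sets 1 array against another. In such bulk RNA, fewer cells expressing a gene and less RNA per cell cannot be told apart.

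Promoter sequences are shown for the 3 members with the widest ranges, Spry1, Dusp6 and Dusp10, and for the 2 members whose promoter held a match to a motif of a factor downstream of MAP kinases or cAMP signalling, Dusp5 and Dusp1. They are from RefSeq (GRCm38.p6), run from 250 bases before to 50 bases after the annotated start, and are written 5′ to 3′ on the gene's strand. Capitals mark motif matches. The windows are chr3:37639697-37639996, plus strand, for Spry1, chr10:99262981-99263280, plus strand, for Dusp6, chr1:184034131-184034430, plus strand, for Dusp10, chr19:53528895-53529194, plus strand, for Dusp5, and chr17:26508423-26508722, minus strand, for Dusp1.
Spry1 promoter: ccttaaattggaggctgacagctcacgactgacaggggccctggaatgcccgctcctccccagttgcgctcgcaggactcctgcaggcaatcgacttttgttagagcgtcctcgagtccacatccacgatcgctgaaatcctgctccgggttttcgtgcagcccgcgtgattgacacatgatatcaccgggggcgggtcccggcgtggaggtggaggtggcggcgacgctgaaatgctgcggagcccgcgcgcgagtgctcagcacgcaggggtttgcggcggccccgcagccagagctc
Dusp6 promoter: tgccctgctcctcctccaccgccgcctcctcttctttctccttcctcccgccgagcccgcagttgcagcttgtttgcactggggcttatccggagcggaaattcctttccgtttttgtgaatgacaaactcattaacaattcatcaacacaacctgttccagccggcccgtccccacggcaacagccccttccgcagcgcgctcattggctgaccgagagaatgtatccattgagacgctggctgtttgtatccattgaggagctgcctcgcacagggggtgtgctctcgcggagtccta
Dusp10 promoter: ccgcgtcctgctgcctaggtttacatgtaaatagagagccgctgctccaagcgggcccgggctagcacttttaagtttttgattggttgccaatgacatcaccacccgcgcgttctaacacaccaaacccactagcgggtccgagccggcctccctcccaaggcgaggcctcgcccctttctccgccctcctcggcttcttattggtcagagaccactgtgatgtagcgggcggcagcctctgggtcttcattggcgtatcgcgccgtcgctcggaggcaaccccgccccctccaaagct
Dusp5 promoter: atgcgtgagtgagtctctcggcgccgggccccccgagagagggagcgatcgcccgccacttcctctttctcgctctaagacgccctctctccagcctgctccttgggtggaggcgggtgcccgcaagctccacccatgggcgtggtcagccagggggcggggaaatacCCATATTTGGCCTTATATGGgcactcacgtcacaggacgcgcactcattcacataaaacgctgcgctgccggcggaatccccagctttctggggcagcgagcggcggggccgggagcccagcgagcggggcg
Dusp1 promoter: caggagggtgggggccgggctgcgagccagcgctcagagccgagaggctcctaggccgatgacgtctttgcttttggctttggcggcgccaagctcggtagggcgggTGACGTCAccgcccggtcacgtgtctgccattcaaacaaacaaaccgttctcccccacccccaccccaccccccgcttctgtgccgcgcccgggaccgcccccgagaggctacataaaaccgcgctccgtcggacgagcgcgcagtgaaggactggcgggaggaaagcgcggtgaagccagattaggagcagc

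The motifs searched on both strands were the cAMP response element TGACGTCA, the AP-1 site TGANTCA, the STAT site TTCNNNGAA and the CArG box of serum response factor. Each of these patterns reads the same on both strands, and no match overlapped another. Of the 10 members, 9 had a promoter entry. The Dusp5 window held 2 CArG boxes side by side, CCATATTTGG at -82 to -73 and CCTTATATGG at -72 to -63 from the start, where 1.63% of 32851 promoter windows of the same length held at least 1. The Dusp1 window held 1 cAMP response element at -143 to -136, a motif found in 1.79% of windows. The AP-1 and STAT sites were in 7.81% and 8.30% of all windows and in none of the 9, and the letters searched were not in the Spry1, Dusp6 and Dusp10 windows. A match of letters is a description and shows no binding.

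Values are probe set intensities on a linear scale, as the authors deposited them. Differences are log2(intensity + 1) of one array minus another. Genes entered the comparisons where at least 1 array reached an intensity of 187, the median over the whole table, and 11003 genes did so. Since 2-fold is a wide limit for these arrays, a smaller limit of 0.5 log2 units (1.41-fold) was counted as well. For scale, 474 genes have 2 bright probe sets, and the gap between their differences had a 95th percentile of 0.41 for IL-21 minus medium, 0.37 for IL-6 + TGFb1 minus medium, and 0.35 between the cytokine cultures. Such a gap reflects differences among probe sets on shared arrays, and the spread between cultures is no part of it. Markers fit the labelled cells in that all 9 CD4+ T cell markers with a usable probe set, Cd4 and Cd3e among them, lay between 1709.6 and 6858 on all arrays. Of the 3 naive T cell markers, Ccr7 and Lef1 lay between 3756 and 6927. Il7r was at 1481 with IL-21, 1827 with IL-6 + TGFb1 and 989 with medium, so it was above medium in both cytokine cultures, by 0.58 and 0.89, and its part in the members' differences was not tested. The 6 myeloid and 4 dendritic cell markers did not exceed 212, and of the 5 B cell markers only Cd79b (365 to 380) passed the brightness filter. All 4 NK cell markers were below the filter on all arrays. Among them Klrd1 was at 98 with IL-21, 173 with IL-6 + TGFb1 and 66 with medium, differences from medium of 0.56 and 1.37. Klrk1 was at 103, 107 and 88 on the same arrays, and Ncr1 and Klrb1c were nearly level. The part of Klrd1-expressing cells in the members' differences was not tested. Of the CD8+ T cell markers, Cd8a was at 145 with IL-21, 155 with IL-6 + TGFb1 and 163 with medium, and Cd8b1 at 731, 616 and 810 on the same arrays. Cd8b1 thus had the same lowest array as Spry1 and Dusp6, and its part in their differences was not tested.

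**Figure D1:**
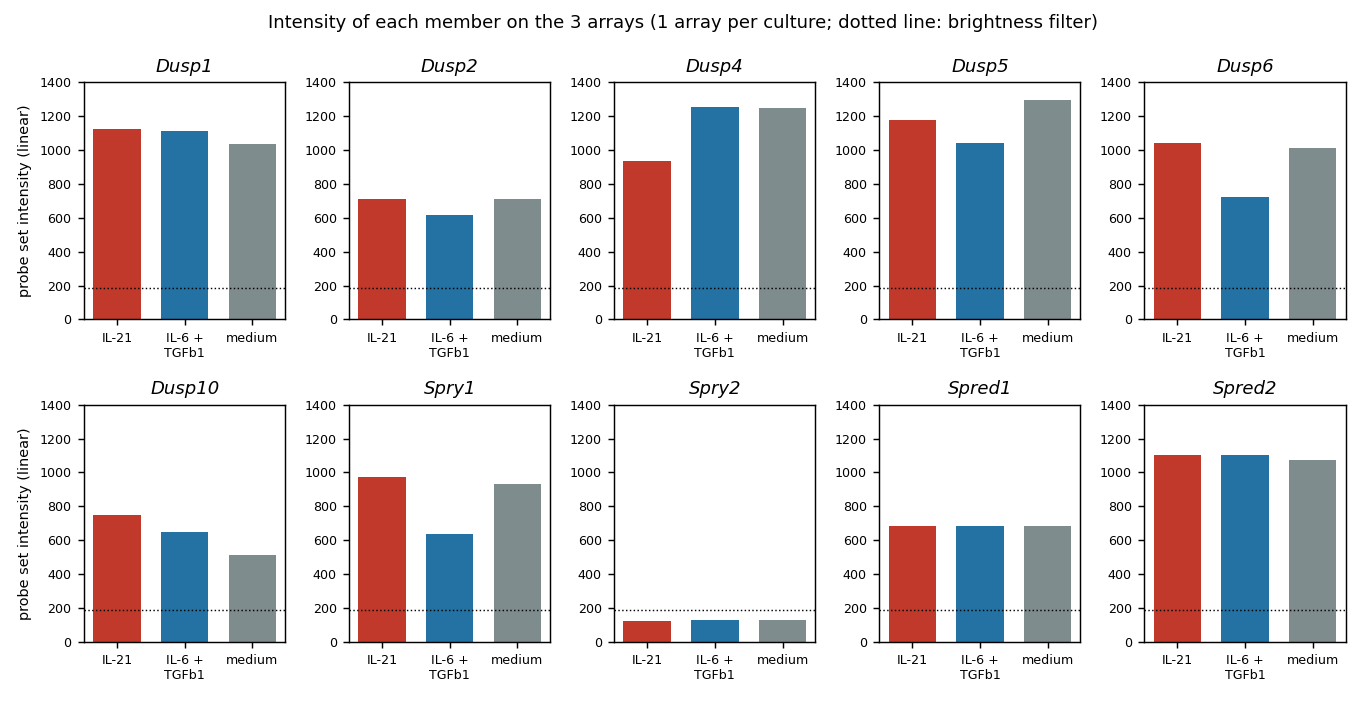
Probe set intensity (linear scale, from 0) of each of the 10 members on the IL-21, IL-6 + TGFb1 and medium arrays, 1 array per culture, with the brightness filter of 187 as a dotted line. Spry1 and Dusp6 are lowest with IL-6 + TGFb1, Dusp4 is lowest with IL-21, Dusp10 is lowest in medium, and Spry2 lies below the filter on all 3 arrays. Bars of different genes are different probe sets, so their heights are not to be set against each other.

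Among the phosphatases that act on ERK, Dusp6 encodes a cytoplasmic enzyme that is selective for ERK. Its intensity was 1039 with IL-21, 722 with IL-6 + TGFb1 and 1014 with medium. The IL-21 and medium arrays were close to each other and the IL-6 + TGFb1 array lay below both. The log2 difference was 0.034 for IL-21 minus medium and -0.49 for IL-6 + TGFb1 minus medium, just short of the smaller limit. In the latter comparison 5.07% of compared genes were at least as far from 0. Between the cytokine cultures the difference was 0.52, which is 1.44-fold higher with IL-21, and 1.79% of compared genes were at least as far from 0.

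Dusp5 encodes the nuclear counterpart of Dusp6, also selective for ERK. Its intensity was 1178 with IL-21, 1042 with IL-6 + TGFb1 and 1296 with medium. Both cytokine cultures were below medium, by a log2 difference of -0.14 for IL-21 and -0.31 for IL-6 + TGFb1, and neither reached 0.5. The order of these 3 arrays differed from that of Dusp6, since the IL-21 value lay between the others. For scale, 40.1% of compared genes were at least as far from medium in the IL-21 culture, and 13.0% with IL-6 + TGFb1.

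Dusp4 and Dusp2 encode inducible nuclear phosphatases. The Dusp4 enzyme acts on ERK and JNK, and Dusp2 is known as a gene of activated lymphocytes. Dusp4 stood at 934 with IL-21, 1252 with IL-6 + TGFb1 and 1249 with medium. The IL-21 array was the low one, and the other arrays were nearly equal. The log2 difference was -0.42 for IL-21 minus medium, 0.0033 for IL-6 + TGFb1 minus medium and -0.42 between the cytokine cultures. For scale, 6.26% of compared genes were at least as far from 0 for IL-21 minus medium, and 2.74% between the cytokine cultures. Dusp2 was at 713 with IL-21, 614 with IL-6 + TGFb1 and 713 with medium. Its values on the IL-21 and medium arrays were exactly equal, and IL-6 + TGFb1 minus medium was -0.21.

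The phosphatases that act mainly on JNK and p38 are encoded by Dusp1, an immediate early gene whose nuclear product also limits p38 in innate immune cells, and by Dusp10. Dusp10 had an intensity of 751 with IL-21, 646 with IL-6 + TGFb1 and 513 with medium. Both cytokine arrays lay above medium, and the IL-21 array was the highest. The log2 difference was 0.55 for IL-21 minus medium, a 1.46-fold higher value, and 3.03% of compared genes were at least as far from 0. For IL-6 + TGFb1 minus medium the difference was 0.33, a size that 11.6% of compared genes reached in either direction. Between the cytokine cultures it was 0.22, reached by 11.8%. Dusp1 had 1122 with IL-21, 1110.4 with IL-6 + TGFb1 and 1038 with medium, with differences from medium of 0.11 and 0.10. These are close to the median absolute difference of all compared genes, 0.10 with IL-21 and 0.11 with IL-6 + TGFb1.

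Spry1 encodes a Sprouty protein that restrains Ras and ERK signalling and is known in T cells as a modulator of antigen receptor responses. Its intensity was 970.4 with IL-21, 635 with IL-6 + TGFb1 and 929.7 with medium. The IL-6 + TGFb1 array was low and the other arrays were near each other. The log2 difference was 0.062 for IL-21 minus medium and -0.55 for IL-6 + TGFb1 minus medium, which is 1.46-fold lower, and 4.04% of compared genes were at least as far from 0. Between the cytokine cultures Spry1 was 1.53-fold higher with IL-21 (0.61), a size that 1.35% of compared genes reached in either direction. Spry2, its close relative, was at 122 with IL-21, 127 with IL-6 + TGFb1 and 127 with medium. All of these lie below the brightness filter, so Spry2 was not compared.

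Spred1 and Spred2 encode relatives of Sprouty that bring neurofibromin, a Ras inactivator, to the membrane. Spred1 had the same value of 683 on all 3 arrays. Such exact ties were common in the deposited values, with 4.15% of compared genes equal on all 3 arrays and 23.4% tied between at least 2, and 3 of the 9 compared members (Dusp2, Spred1 and Spred2) held a tie. Spred2 had 1105 with IL-21, 1105 with IL-6 + TGFb1 and 1071 with medium, a difference of 0.046 in each cytokine culture. It was the only member with a further probe set, with values of 610.1, 667 and 540.3 on the same arrays. These gave 0.18 for IL-21 minus medium, 0.30 for IL-6 + TGFb1 minus medium and -0.13 between the cytokine cultures. The probe sets of Spred2 thus differed in size and shared the direction from medium.

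**Figure D2:**
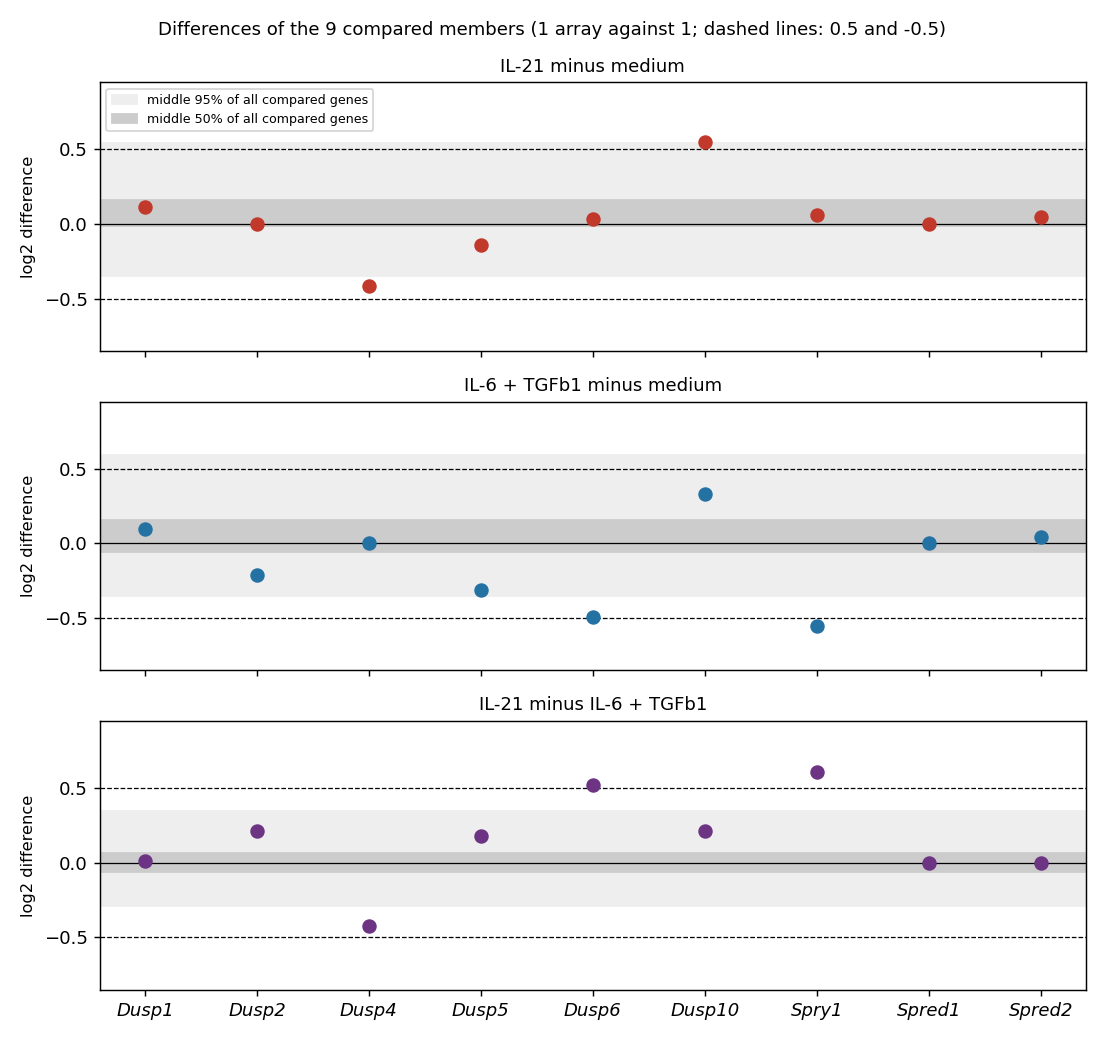
Log2 difference (vertical axis) of the 9 compared members in each comparison, 1 array against 1, over grey bands that hold the middle 50% and the middle 95% of all 11003 compared genes, with dashed lines at 0.5 and -0.5. Dusp10 passes the upper line for IL-21 minus medium (0.55), Spry1 the lower line for IL-6 + TGFb1 minus medium (-0.55), and Spry1 (0.61) and Dusp6 (0.52) the upper line between the cytokine cultures.

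Read over the whole group, the comparison of IL-21 with medium gave 0 of 9 members at the 2-fold limit, where 0.591% of all compared genes passed it. At the limit of 0.5 log2 units 1 member, Dusp10, was higher, where 3.02% of all compared genes were, and 0 were lower, where 0.809% were. Of the 9 members, 5 were above 0, 2 below and 2 exactly 0, beside 59.8%, 28.6% and 11.6% of all compared genes, and their median difference of 0.034 lay beside a median of 0.036 over all compared genes. With the arrays quantile normalized, Dusp10 was at 0.43 and Dusp4 at -0.51, so that the member past the smaller limit was Dusp4.

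For IL-6 + TGFb1 against medium, 0 of 9 members and 1.04% of compared genes passed 2-fold. At 0.5 log2 units 1 member, Spry1, was lower, where 1.24% of compared genes were, and 0 were higher, where 3.64% were. There were 4 members above 0, 4 below and 1 at exactly 0, beside 56.3%, 36.6% and 7.13% of compared genes, with a median of 0 beside 0.023 over all compared genes. Dusp6 joined Spry1 past the smaller limit when the arrays were quantile normalized (-0.57). Since the medium array is the reference in both of these comparisons, their values are given side by side only.

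The direct comparison of IL-21 with IL-6 + TGFb1 takes no medium value into its differences. The medium array did count in the brightness filter and in the choice of probe set. No member passed 2-fold, against 0.464% of compared genes. At 0.5 log2 units 2 of 9 members, Spry1 and Dusp6, were higher with IL-21, where 1.28% of compared genes were, and 0 were lower, where 0.754% were. Of the members, 6 were above 0, 1 (Dusp4) was below and 2 were exactly 0, beside 44.7%, 42.3% and 13.0% of compared genes, and the median of 0.18 lay beside 0 over all compared genes. These cultures differ in TGFb1 as well as in the interleukin added, and the effects of each cannot be told apart.

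The genes most like Spry1, by the distance between their pairs of differences from medium over the 3 arrays, were Itm2a, Rasgef1a, Abcb1b, Dusp6 and Cblb. The distances ran from 0.049 for Itm2a, a membrane protein gene, to 0.076 for Cblb. Itm2a had an intensity of 2957 with IL-21, 1849 with IL-6 + TGFb1 and 2795 with medium. Rasgef1a, a Ras-family exchange factor gene, had 305, 202 and 303 on the same arrays, and the drug efflux pump gene Abcb1b had 771, 524 and 771. Cblb encodes a ubiquitin ligase that restrains antigen receptor signalling, and its intensity was 3565 with IL-21, 2501 with IL-6 + TGFb1 and 3586 with medium. Each was low on the IL-6 + TGFb1 array alone. A pattern over 3 arrays is easily matched among 11003 genes, so this is a description of likeness only.

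A chosen list of 13 other dual-specificity phosphatase genes had 12 compared and no 2-fold difference in any comparison. Of all compared genes, 0.591% passed 2-fold for IL-21 minus medium, 1.04% for IL-6 + TGFb1 minus medium and 0.464% between the cytokine cultures. Dusp3, a small phosphatase gene, had an equal intensity of 224 in the IL-21 culture and the IL-6 + TGFb1 culture, against 157 with medium, a difference of 0.50 in each and the only one of this list to reach the smaller limit. On the higher side 3.02% of all compared genes reached that limit with IL-21 and 3.64% with IL-6 + TGFb1. The medium value of Dusp3 lay below the brightness filter, so Dusp3 was compared only through the arrays where it was high, and that call is poorly measured. Dusp19 had differences from medium of 0.23 (IL-21) and 0.33 (IL-6 + TGFb1), and Dusp8 had -0.32 and -0.10. The list medians were 0.016 with IL-21, 0.053 in the IL-6 + TGFb1 culture and -0.063 between the cytokine cultures. In that last comparison 7 of 12 were lower with IL-21, 2 were higher and 3 were exactly equal. Of all compared genes, 42.3% were lower there, 44.7% higher and 13.0% equal. Of the other Sprouty and Spred genes, Spry3 was too dim to be compared. Spry4 was at 200.4 with IL-21, 169.8 with IL-6 + TGFb1 and 196.3 with medium, again with the IL-6 + TGFb1 array lowest, and Spred3 at 203, 247 and 213. Both were close to the brightness filter.

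Upstream, the 11 compared genes of the ERK cascade had 0 past the smaller limit in any comparison. Of all compared genes, 3.02% were higher and 0.809% lower at that limit for IL-21 minus medium. The shares were 3.64% and 1.24% for IL-6 + TGFb1 minus medium, and 1.28% and 0.754% between the cytokine cultures. Ksr1, a scaffold of Raf, MEK and ERK, differed from medium by 0.41 in the IL-21 culture and by 0.36 with IL-6 + TGFb1. Rasgrp1, the exchange factor that loads Ras below the T cell receptor, was at -0.05 and -0.28, and Nras, a Ras GTPase gene, at 0.19 and 0.02. Among 15 other brakes on Ras and ERK, Cblb was the only gene past 0.5, at -0.52 for IL-6 + TGFb1 minus medium and 0.51 between the cytokine cultures. Of all compared genes, 1.24% were past it on the lower side in the former comparison and 1.28% on the higher side in the latter. The adaptor gene Dok2 differed from medium by 0.32 in the IL-21 culture and by 0.25 with IL-6 + TGFb1, and Rasal3, a Ras GTPase-activating protein gene, by 0.31 and 0.15.

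The Dusp10 product acts on JNK and p38 themselves. In their cascade, which also holds kinases above and below them, 1 of 15 compared genes passed the smaller limit against medium. It was on the higher side, where 3.02% of all compared genes were with IL-21 and 3.64% with IL-6 + TGFb1. This was Map3k5, a stress-responsive kinase upstream of JNK and p38, with an intensity of 1074 with IL-21, 1022 with IL-6 + TGFb1 and 583 with medium. Both cytokine arrays were well above medium, by 0.88 with IL-21 and 0.81 with IL-6 + TGFb1. Map3k1 was at 0.40 and 0.30, and Mapkapk2, a kinase activated by p38, at 0.28 and 0.31. The list median was 0.094 with IL-21 and 0.16 with IL-6 + TGFb1, beside 0.036 and 0.023 over all compared genes.

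**Figure D3:**
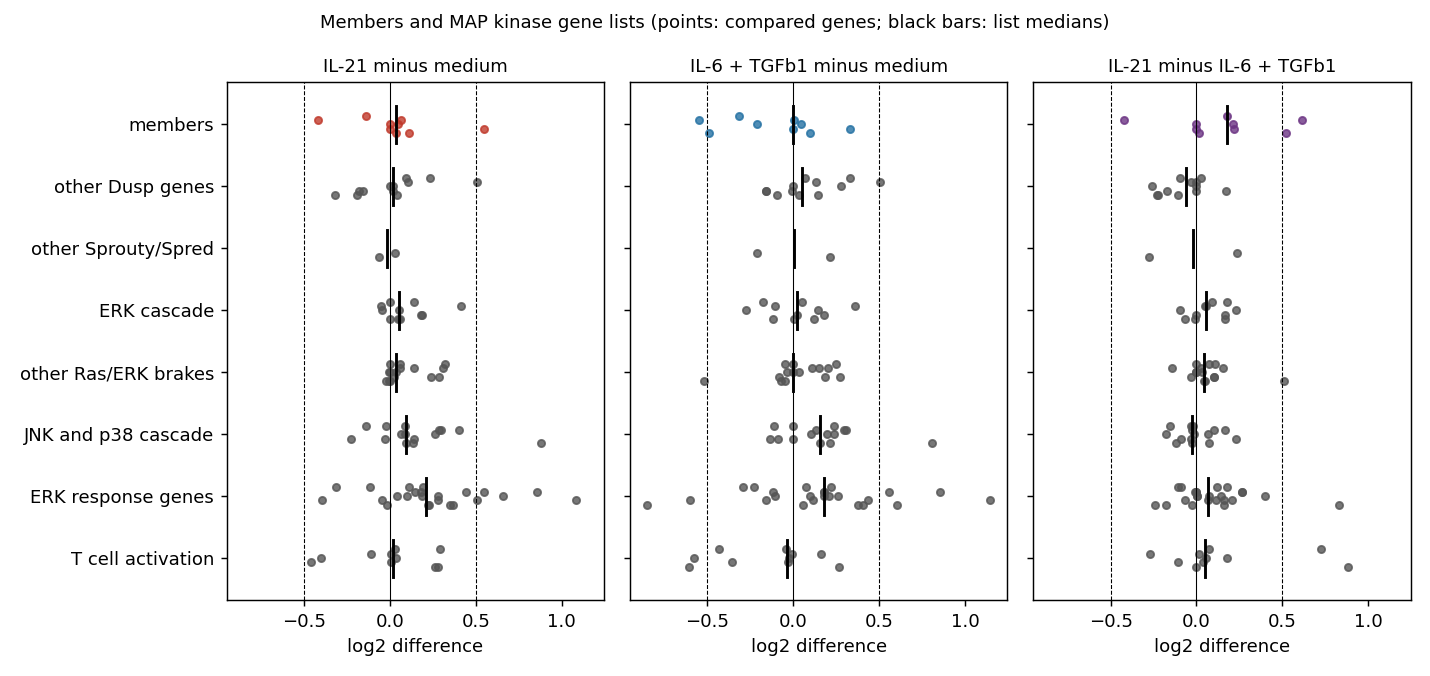
Log2 difference (horizontal axis) of each compared gene in the member group and in 7 lists of related genes, 1 panel per comparison, with black bars at list medians and dashed lines at 0.5 and -0.5. Against medium the ERK response genes run from -0.85 (Atf3) to 1.15 (Fosl2), both with IL-6 + TGFb1, while the ERK cascade stays within the dashed lines.

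The ERK response and immediate early list, 24 genes that include MAP kinase-induced transcription factors, their feedback regulators and ERK-activated factors such as Srf, had a median of 0.21 with IL-21, 0.18 in the IL-6 + TGFb1 culture and 0.070 between the cytokine cultures, beside 0.036, 0.023 and 0 over all compared genes. With IL-21, 1 gene was 2-fold higher, Fosl2 (1.08), and 5 of 24 were past 0.5 on the higher side with 0 on the lower side, where 3.02% and 0.809% of all compared genes were. With IL-6 + TGFb1, Fosl2 (1.15) was again the only one past 2-fold, and 4 were past 0.5 on the higher side and 2 on the lower, where 3.64% and 1.24% of all compared genes were. Ier3, an immediate early gene, had 300.8 with IL-21, 300.8 with IL-6 + TGFb1 and 166 with medium, a difference of 0.86 in each. It too was below the brightness filter in medium and was compared only through the cytokine arrays. Atf3, a stress-inducible transcription factor gene, was at 1638 with IL-21, 920.4 with IL-6 + TGFb1 and 1661 with medium. It was thus low on the IL-6 + TGFb1 array alone (-0.85 against medium), as were Spry1 and Dusp6. The others past the smaller limit were chosen for mention after their values were seen. With IL-21 they were Egr2 (0.66), Zfp36 (0.55) and Junb (0.50), and with IL-6 + TGFb1 Jun (0.61), Zfp36 (0.56) and Phlda1 (-0.60). Phlda1 was below the brightness filter on both cytokine arrays, at 165 and 143, and was compared only through the medium array, at 218.

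Genes that report T cell activation were read beside these values. Of 10, 0 passed 2-fold in any comparison. At 0.5 log2 units 0 passed for IL-21 minus medium, where 3.02% of all compared genes were higher and 0.809% lower. For IL-6 + TGFb1 minus medium 2 were lower, Il2 and Cd69, where 1.24% of all compared genes were. In sign, 8 of 10 were below 0, where 36.6% of all compared genes were. Of those 8, Il2ra (-0.03), Icos (-0.04), Tnfrsf4 (-0.006) and Pdcd1 (-0.02) were close to 0. Ctla4 (0.16) and Cd40lg (0.26) were above 0. Cd44 was lowest with IL-21, at -0.46 against medium and -0.35 with IL-6 + TGFb1. Between the cytokine cultures 2 were higher with IL-21, Il2 (0.88) and Tnfrsf9 (0.72), where 1.28% of all compared genes were. Il2 was at 2963 with IL-21, 1604 with IL-6 + TGFb1 and 2445 with medium, and Tnfrsf9, which encodes the costimulatory receptor known as CD137, at 2779.7, 1682 and 2269. Both were lowest on the IL-6 + TGFb1 array, by -0.61 and -0.43 against medium. Cd69, an early activation antigen, was at 3154 with IL-21, 2789 with IL-6 + TGFb1 and 4169.7 with medium, which is -0.40 and -0.58 against medium, so that it was lowest on the IL-6 + TGFb1 array as well. The part of activation state in the differences of Spry1 and Dusp6 was not tested.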

How the data were processed

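RNA from 3 cultures was hybridized to 1 array each after biotin labelling with an Affymetrix whole-transcript kit, per the labels' protocols. The deposited values are probe set intensities on a linear scale, read as such from the values, and the authors' summarization and normalization are not stated in the labels. The submitters' processing notes name the build mm8. Names came from the platform annotation, where 21780 of 28815 probe sets have 1 symbol, and the brightest stood for a gene. The differences of log2(intensity + 1) were computed with Python 3.11.15 and pandas 2.3.3 over all 11003 genes compared, after a check on simulated arrays. With 1 array a culture no test was possible, and the number of arrays limits the precision. All members were named, with list genes past 2-fold or among the 3 largest of their list, and the 5 genes nearest Spry1. The members and lists were chosen with earlier results of these data known. Other scalings, filters, pseudocounts and probe set rules were tried. No sequences of the proteins were used here.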

Additional observations from a re-analysis of the deposited data

How the results depend on the processing

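Across 7 other settings, 0 members passed 2-fold in any comparison. By count, 192 of 210 recomputed member differences moved by less than the median gap between 2 probe sets of a gene. That count includes values that could not move, since changing the filter or raising low values left every member difference as it was. The mean of all probe sets could change Spred2 alone. Most of the differences that did move were with quantile normalization, among them every member for IL-21 minus medium. None of the member differences of at least 0.1 changed sign, and the largest move was 0.13. With quantile normalization the member median was -0.065 for IL-21 minus medium, and for IL-6 + TGFb1 minus medium it was -0.083, with 2 members past 0.5. The small IL-21 differences of Dusp6 (-0.065), Spry1 (-0.037) and Spred2 (-0.046) were then below 0. With the filter at the 75th percentile, 6 members were left. The genes past 2-fold were then 35 for IL-21 minus medium, 69 for IL-6 + TGFb1 minus medium and 31 between the cytokine cultures, against 65, 114 and 51 with the filter reported, fewer genes being tested. Dusp10 was not among those 6, which left 0 members past 0.5 for IL-21 minus medium, and the member median was -0.16 for IL-6 + TGFb1 minus medium and 0.096 between the cytokine cultures. It was also 0.096 there with no filter. No paired analysis was possible because each culture had 1 array and the labels carry no replicate numbers. With 1 array a culture, the spread between cultures is unknown, and no difference here can be set against it.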
